A study of Rattus norvegicus with 24 samples.

Results

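The RNA of young rat liver was set against the RNA of young rat brain. The comparison used 6 of the 24 libraries of the series, chosen by their labels alone: 3 RNA-seq libraries of liver and 3 of brain, from the same 3 rats aged 6 months. The other libraries hold RNA-seq of liver and brain from 3 rats aged 24 months and ribosome profiling, the sequencing of mRNA pieces protected by ribosomes, of all these tissues. The labels give no strain, sex, genotype, treatment or region of an organ, and every value is an average over the cell types of the homogenised tissue. All 22938 listed transcripts entered the description. They carry transcript identifiers without gene names. The table of rat genes of assembly GRCr8 used here is not keyed by identifiers of this kind, so 0 of them matched. This does not show that the genes are absent from that assembly. Neither organ could therefore be checked against its marker genes, no function is given to any transcript, and no sequence is shown.

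Hepatocytes make up most of the liver's mass, and they secrete most of the proteins of blood plasma, such as albumin, apolipoproteins and clotting factors. A small set of very abundant mRNAs is known to serve this secretion. Brain tissue holds many kinds of neurons and glia, and its mRNA population is known for its large number of different species, many of them found in few other organs. How counts were spread over transcripts, how many transcripts each organ had, and how far single transcripts differed are given in that order.

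The liver libraries held 17932008 to 21134842 counts and the brain libraries 15018979 to 15447209, so every liver library was deeper than every brain library. Across the 14289 transcripts that passed the count filter, Pearson's r of log2(CPM + 0.5) was 0.985 to 0.995 between liver libraries and 0.993 to 0.996 between brain libraries (CPM, counts scaled to a library total of 1e+06). Between a liver and a brain library it was 0.358 to 0.373, and pairs from one animal lay inside that range. A transcript could pass the filter through its counts in a single organ, so r between organs depends in part on that choice. These values describe transcripts, which are not independent replicates. The liver library of animal 1 stood farthest from its group, with r of 0.987 and 0.985 to the other liver libraries, whose r to each other was 0.995.

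Counts were far more concentrated in liver than in brain. The 10 transcripts with the most counts held 28.8%, 24.7% and 26.6% of the counts in the liver libraries of animals 1, 2 and 3, against 7.46%, 6.44% and 6.32% in their brain libraries. The groups did not overlap, with means of 26.7 ± 2.05% in liver and 6.74 ± 0.63% in brain (SD, n = 3; two-sided exact permutation p = 0.1, the smallest that 3 against 3 allows, as in every permutation test here). The top 100 transcripts held 51.9 ± 1.99% in liver and 19.99 ± 0.57% in brain, and the top 1000 held 77.2 ± 1.29% and 51.8 ± 0.256% (exact permutation p = 0.1 for each). The permutation tests shuffled the libraries freely and did not keep the pairs from an animal. Shares of counts are not corrected for transcript length. With counts divided by the length-like value of the files, whose unit no header defines, the 10 highest transcripts held 19.3 ± 1.1% in liver and 7.12 ± 0.624% in brain.

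**Figure D1:**
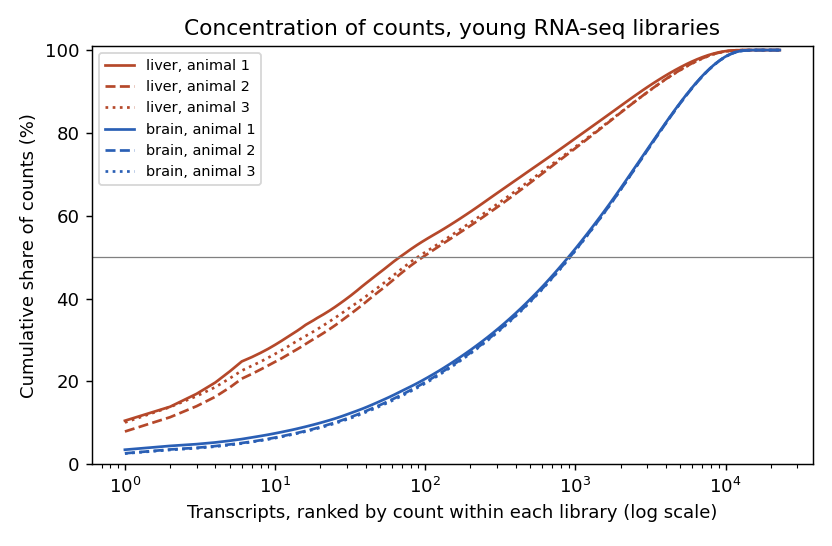
Cumulative share of library counts (y axis, percent) held by transcripts ranked from the most to the least abundant in each library (x axis, log scale), for the 3 young liver libraries and the 3 young brain libraries. The grey line marks 50%, which the liver libraries reach at rank 68 to 97 and the brain libraries at rank 898 to 923.

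The number of transcripts needed to reach 50% of all counts was 68, 97 and 89 in liver, against 898, 917 and 923 in brain. Reaching 90% took 2731, 3055 and 3063 transcripts in liver and 5697, 5741 and 5723 in brain. All liver values lay below all brain values in both measures (exact permutation p = 0.1). The exponential of the Shannon entropy, which gives the number of equally abundant transcripts that would have the same diversity, was 798 ± 107 in liver and 4116 ± 118 in brain (SD, n = 3). The liver library of animal 1 had the most concentrated counts of the 3 liver libraries by each of these measures, and the brain library of animal 1 was also the most concentrated of its group.

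A single transcript, ENSRNOT00000003921, had the most counts in each liver library. It held 2222042, 1454690 and 1809548 counts in liver, which is 10.5%, 7.91% and 10.1% of each library, against 61, 109 and 122 counts in brain. On the scale of CPM corrected with TMM factors (trimmed mean of M-values, which align the bulk of transcripts between libraries), its level was 142910 ± 28521 in liver and 4.28 ± 1.45 in brain (SD, n = 3). The log2 difference between liver and brain was 15.03 (SE 0.43, adjusted p = 4.97e-08, edgeR's quasi-likelihood test with Benjamini-Hochberg adjustment). It was higher in liver in 3 of 3 animals.

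Of the other 9 transcripts in the liver's top 10, 5 had at most 16 counts in each brain library. The fourth most abundant held 579242, 415433 and 391559 counts in liver and 7, 8 and 9 in brain. The fifth held 571208, 419833 and 383002 counts in liver and 16, 12 and 14 in brain. These liver transcripts were thus present in the brain libraries as traces. The third and the eighth were abundant in both organs instead, and they were also the first and the second most abundant in brain. The share of the third was 2.80 ± 0.273% in liver and 2.91 ± 0.516% in brain, and that of the eighth was 0.977 ± 0.0929% and 0.904 ± 0.0351% (SD, n = 3).

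The most abundant transcripts of the organs were largely different ones. The top 10 lists shared 2 transcripts, the top 100 lists 19 and the top 1000 lists 340. The liver's top 100 took 51.7 ± 2% of liver counts and 7.64 ± 0.561% of brain counts. The brain's top 100 took 13.8 ± 0.568% of liver counts and 19.98 ± 0.551% of brain counts (SD, n = 3). For the top 1000 the order of the cross shares turned: the brain's top 1000 took 25.3 ± 1.21% of liver counts, and the liver's top 1000 took 27.8 ± 0.511% of brain counts.

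By CPM of the deposited counts, brain had more transcripts at middle levels and liver more at the extremes. TMM scaling raises liver against brain by 2.23-fold at the median. The bands were not counted on that scale, so the pattern holds for shares of counts only. Between 100 and 1000 CPM of the deposited counts there were 1017 to 1123 transcripts in the liver libraries and 2220 to 2247 in the brain libraries, and between 10 and 100 CPM there were 5397 to 5795 in liver and 7465 to 7490 in brain. Between 1 and 10 CPM the order turned, with 4219 to 4504 in liver and 3560 to 3647 in brain. At 10000 CPM or more there were 7 to 8 transcripts in liver and 1 in each brain library. Those few took 24.5 ± 2.11% of liver counts and 2.91 ± 0.516% of brain counts (SD, n = 3), and the band from 100 to 1000 CPM took 27.1 ± 1.13% in liver and 51.6 ± 0.292% in brain. From 1000 to 10000 CPM the numbers were closer, 91 to 96 in liver and 77 to 83 in brain, with 27.5 ± 0.402% and 15.3 ± 0.23% of counts.

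**Figure D2:**
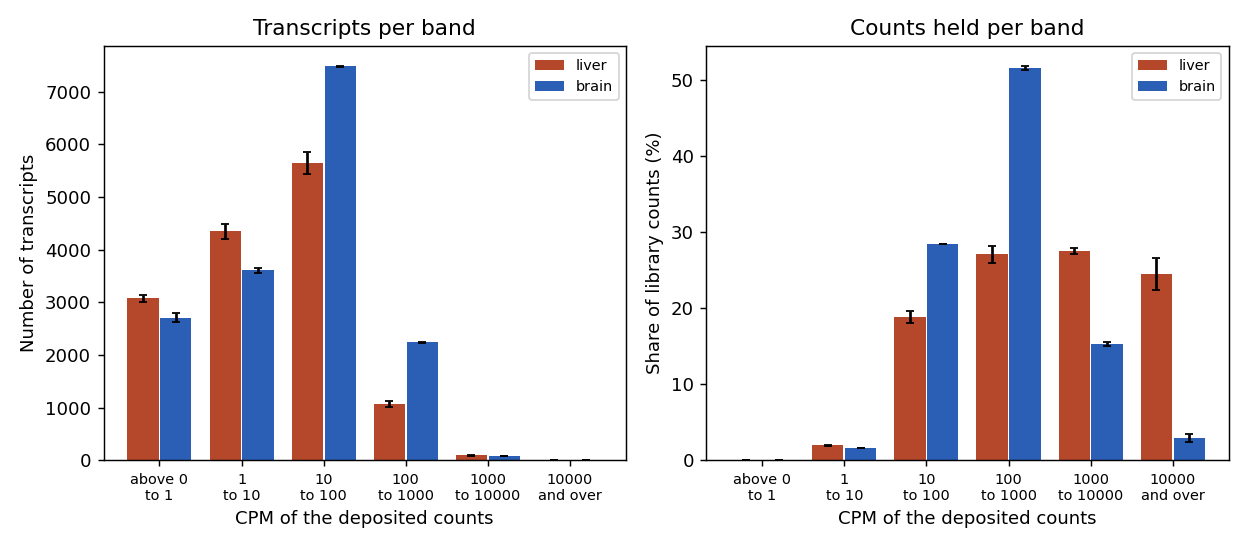
Number of transcripts (left) and share of library counts in percent (right) in each band of CPM of the deposited counts, without TMM factors. Bars show young liver beside young brain with the mean and SD of 3 libraries. The band from 100 to 1000 CPM holds 27.1% of liver counts and 51.6% of brain counts, while the band of 10000 CPM and over holds 24.5% of liver counts and 2.91% of brain counts.

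The distance from the commonest to the middle transcript was larger in liver. Among transcripts with at least 10 counts, the highest count was 8714, 5705 and 7326 times the median in liver, against 1447, 1088 and 1058 times in brain (exact permutation p = 0.1, no overlap). The spread of the bulk differed little. The ratio of the 95th to the 5th percentile was 222 ± 5.34 in liver and 204 ± 1.5 in brain (SD, n = 3), but at one depth for all libraries it was 186 ± 7.82 in liver and 202 ± 1.14 in brain, so its direction depended on depth.

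Fewer transcripts were detected in liver although its libraries were deeper. At least 10 counts were found for 11889, 11903 and 11959 transcripts in liver, against 13878, 13957 and 13867 in brain. Means were 11917 ± 37 in liver and 13901 ± 49.1 in brain (SD, n = 3; exact permutation p = 0.1, no overlap). After thinning all libraries to 15018979 counts the means were 11668 ± 104 and 13885 ± 35.3. The top transcripts of liver leave fewer counts for the rest, so the libraries were also thinned to one effective size, the total multiplied by the TMM factor. There the means were 11887 ± 65.9 in liver and 13271 ± 41 in brain, again without overlap. In every library of its organ, at least 10 counts were found for 11498 transcripts in liver and 13572 in brain, with 10812 in common, which is 94.0% of the liver's and 79.7% of the brain's.

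Most transcripts differed between the organs. Of 14289 tested, 11675 (81.7%) were called, of which 5283 (37% of those tested) were higher and 6392 (44.7%) lower in liver, at an adjusted p under 0.05 (edgeR's quasi-likelihood test with the animal as a block, TMM factors). At least 2-fold differences were found for 3342 higher (23.4%) and 4741 lower (33.2%), and at least 10-fold ones for 1167 higher and 2521 lower, with transcripts at 0 counts in an organ set at a floor of 3 counts over its libraries. The median log2 difference was 1.38 among those higher in liver and -2.35 among those lower, beside -0.16 over all tested. Values of the liver and brain libraries did not overlap for 12158 transcripts (85.1% of those tested). All 3 animals showed the direction of the call for 5271 of the 5283 higher and 6388 of the 6392 lower transcripts. The calls were made on these same libraries, so this agreement is a description and no separate evidence. In a bulk sample, fewer cells of a type and less RNA per cell cannot be told apart, so each difference is one of the average over an organ.

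For 4340 of the tested transcripts the 95% interval of the difference lay inside 2-fold in either direction, and 2212 of these were called. Of all tested transcripts 2614 were not called, and 1122 of these went the same way in 3 of 3 animals. On this scale, below 100 TMM-scaled CPM in the higher organ, differences of at least 2-fold were more often on the side of brain. The count filter acts on CPM without TMM factors, so it falls at a lower TMM-scaled level in brain. Where the higher organ had 1 to 10 TMM-scaled CPM, 671 of 3638 transcripts were at least 2-fold higher in liver and 1517 at least 2-fold lower. From 10 to 100 the numbers were 1588 and 2296 of 7717. From 100 to 1000 TMM-scaled CPM, 929 of 2349 were at least 2-fold higher in liver and 665 lower, and from 1000 to 10000 the numbers were 132 and 22 of 167.

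**Figure D3:**
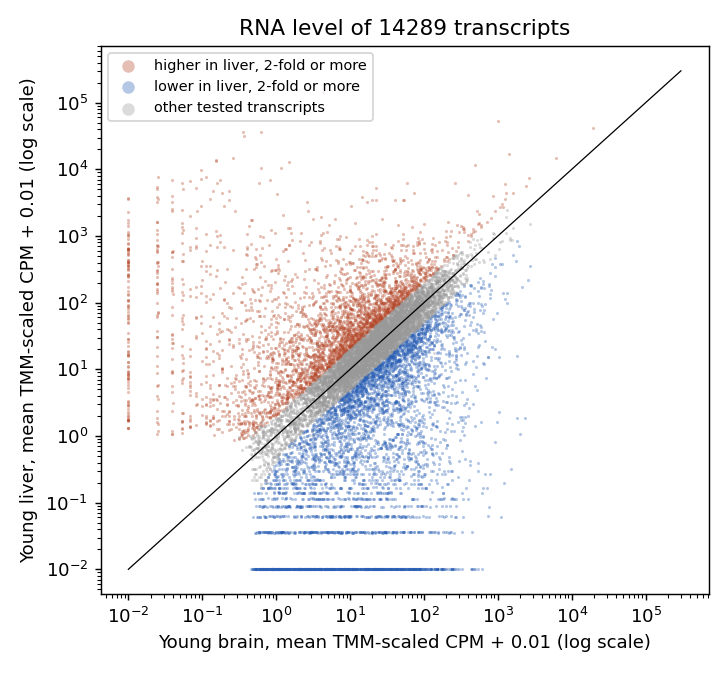
Mean TMM-scaled CPM plus 0.01 in young liver (y axis, log scale) against young brain (x axis, log scale) for the 14289 tested transcripts, with the line of equal levels. Coloured points are the 3342 transcripts called at least 2-fold higher and the 4741 called at least 2-fold lower in liver, and points in the lowest row or the leftmost column had 0 counts in one organ.

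The balance of higher and lower calls rested on the scaling. TMM factors were 0.619 to 0.698 in liver and 1.488 to 1.498 in brain. With library totals alone, without such factors, the median log2 difference over all tested transcripts was -1.32, a shift of -1.16, and 2389 transcripts were higher and 10309 lower in liver, so that 18.8% of calls were higher instead of 45.3%. Median-ratio and upper-quartile factors gave medians of -0.18 and -0.21 and 44.7% and 43.8%. At least 2-fold calls made under both TMM factors and library totals numbered 1813 higher and 4741 lower, and 1529 of the 3342 higher calls were made under TMM alone. Library totals move log2 differences down, so a lower call under TMM could hardly be lost. The number of lower calls under both scales therefore does not test their dependence on scaling. Counts of transcripts do not give the amount of RNA per cell, which was not measured, so neither scale shows absolute amounts.

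The transcripts shared at the top of both organs show what the scaling does. The commonest brain transcript, ranked 3 in liver, had a log2 difference of 1.11 (SE 0.14, adjusted p = 0.000164) under TMM and -0.05 (SE 0.14, adjusted p = 0.738) under library totals, both by edgeR. The next, ranked 8 in liver, had 1.27 (SE 0.13, adjusted p = 4.21e-05) and 0.11 (SE 0.13, adjusted p = 0.445). These transcripts took about the same share of counts in both organs, as given above. Of the larger differences, 787 transcripts were at least 10-fold higher and 2521 at least 10-fold lower in liver under both scales, with the same floor. Here too the number of lower ones could hardly fall under library totals.

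The transcript with the highest level in brain among those at least 2-fold lower in liver was ENSRNOT00000019239. It had 4580, 4669 and 4454 counts in liver, against 62547, 63515 and 61282 in brain. Its level was 357 ± 6.42 TMM-scaled CPM in liver and 2742 ± 5.59 in brain (SD, n = 3), with a log2 difference of -2.94 (SE 0.11, adjusted p = 1.58e-07 by edgeR), 7.68-fold lower in liver. Unlike ENSRNOT00000003921 in brain, it was no trace in liver. The libraries of an organ lay close together, and liver was lower in 3 of 3 animals.

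Sorted by size of difference, the 3342 transcripts at least 2-fold higher in liver made up 78.4 ± 1.31% of liver counts and 16.0 ± 0.479% of brain counts. The 4741 transcripts at least 2-fold lower in liver made up 2.72 ± 0.184% of liver counts and 43.7 ± 0.501% of brain counts (SD, n = 3). The lists were chosen on these libraries, so these shares are a description. The same lists were then summed in libraries that had no part in the choice. In ribosome profiling of the same young animals, the liver list held 83.0 ± 0.484% of liver and 12.5 ± 0.215% of brain counts, and the brain list 2.12 ± 0.0668% and 47.8 ± 0.0647%. In old animals' RNA-seq the liver list held 79.7 ± 2.45% of liver and 17.7 ± 1.45% of brain counts, and the brain list 2.72 ± 0.469% and 42.1 ± 0.683% (SD, n = 3 each). The liver list ranged from 16.7% to 19.3% in the old brain libraries. These include that of old animal 2, whose high counts on liver transcripts are given below.

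Transcripts with 0 counts in all 3 libraries of one organ and at least 10 in each library of the other numbered 110 for liver and 884 for brain. Their levels differed, with quartile ranges that overlapped. The 110 present in liver had a median of 64.4 TMM-scaled CPM there, with quartiles of 7.44 and 411 and a highest value of 3694, and 49 were at 100 or more. The 884 present in brain had a median of 5.96 in brain, with quartiles of 1.91 and 24.5 and a highest value of 609, and 58 were at 100 or more. They took 2.38 ± 0.0313% of liver counts and 3.66 ± 0.0599% of brain counts, each in the organ where they were found (SD, n = 3). The effective sizes of the liver libraries were smaller, so the rule of 10 counts falls at a higher TMM-scaled level in liver. The lowest member had 1.05 TMM-scaled CPM in liver and 0.468 in brain. The difference in level is therefore set in part by the rule and the scale.

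**Figure D4:**
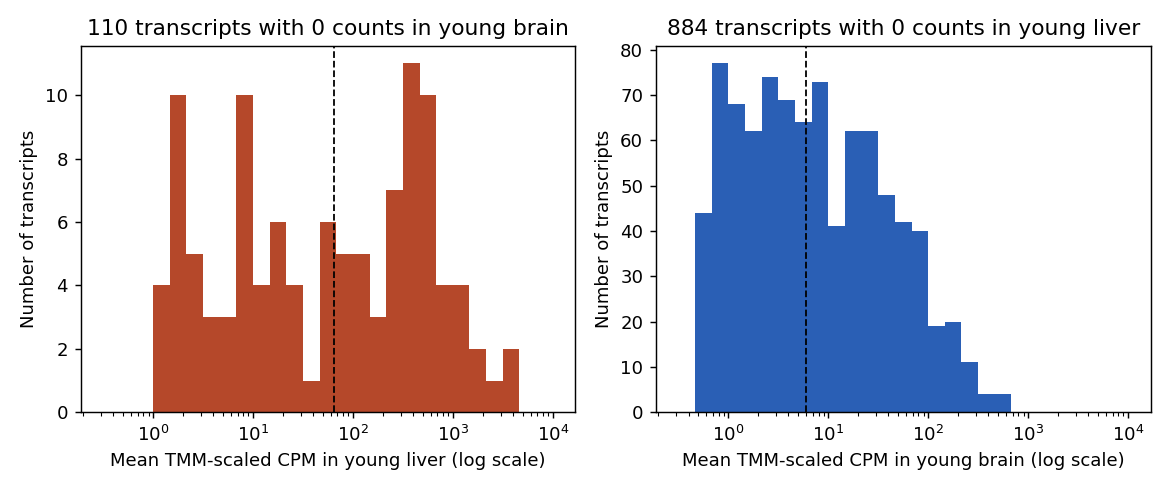
Distribution of the mean TMM-scaled CPM (x axis, log scale) in liver of the 110 transcripts with 0 counts in brain (left) and in brain of the 884 transcripts with 0 counts in liver (right), with numbers of transcripts on the y axis. Dashed lines mark medians of 64.4 in liver and 5.96 in brain.

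A count of 0 has its own limit. Taking 3 counts summed over the 3 libraries of a group as the floor, a transcript listed at 0 could have had up to 0.0782 TMM-scaled CPM in liver and 0.0439 in brain. Against this floor the median transcript of the 110 was at least 1466-fold higher in liver, and that of the 884 at least 76.2-fold lower. Floors cover counting error only, since PCR reads without molecular identifiers are not independent molecules. When up to 3 counts were allowed in the other organ, the lists grew to 246 for liver and 1373 for brain, and with all libraries at one effective size they held 143 and 757.

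ENSRNOT00000047595 was the most abundant of the 110. It had 81838, 29327 and 31533 counts in liver and 0, 0 and 0 in brain. Its level was 3694 ± 2231 TMM-scaled CPM in liver, at least 84120-fold higher than in brain (adjusted p = 1.39e-07 by edgeR). The liver of animal 1 had 6266 and the others 2283 and 2533, so its level among young livers varied far more than that of the transcripts above. In ribosome profiling it had 46338, 36277 and 41134 counts in liver and 1, 0 and 7 in brain. In old animals' RNA-seq it had 145975, 118295 and 70436 counts in liver and 2, 2694 and 26 in brain, with the high brain value in old animal 2, and its difference missed the threshold there (adjusted p = 0.0512 by edgeR).

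ENSRNOT00000008734 was the most abundant of the 884. It had 0, 0 and 0 counts in liver and 14094, 13745 and 13749 in brain, a level of 609 ± 12.5 TMM-scaled CPM in brain and at least 7784-fold lower in liver (adjusted p = 1.49e-07 by edgeR). Ribosome profiling gave 0 counts in each liver library of the young animals and 22340, 10396 and 17056 in brain. In old animals' RNA-seq it had 0 counts in each liver library and 15315, 12441 and 11050 in brain. It was thus at 0 in all 9 of these liver libraries.

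Other readouts did not keep every list member at 0. In ribosome profiling of the young animals, 107 of the 110 liver transcripts had a count in each liver library, while 69 had 0 counts in all 3 brain libraries and 13 had more than 3 there in sum. Of the 884 brain transcripts, 798 had 0 counts in all 3 liver libraries and 17 had more than 3 in sum, while 837 had a count in each brain library. In RNA-seq of old animals, 625 of the 884 were at 0 in all 3 liver libraries and 49 had more than 3 counts in sum. Of the 110, 7 were at 0 in all 3 old brain libraries. The brain library of old animal 2 held 14226 counts on 99 of them, against 46 and 149 counts in those of old animals 1 and 3, and without it 46 of the 110 were at 0.

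On the TMM scale, transcripts at 1000 to 10000 CPM in liver were more often nearly absent from the other organ than those at that level in brain. Of 136 transcripts at 1000 to 10000 TMM-scaled CPM in liver and lower in brain, 84 (61.8%) stood in brain at under 1% of their liver level, and the median was 0.184%. Of 31 transcripts at that level in brain and lower in liver, 8 (25.8%) stood in liver at under 1%, and the median was 13.0%. At 100 to 1000 TMM-scaled CPM the order of the medians did not hold, with 27.6% for 1371 liver transcripts and 22.7% for 978 brain transcripts. The share under 1% turned as well in that band, with 216 (15.8%) of the 1371 and 219 (22.4%) of the 978. Counts of 0 in the other organ were found for 9 of the 136 and 0 of the 31. These are descriptions of transcripts sorted by these same levels, and no test was made.

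For the 50 most abundant transcripts at least 2-fold higher in liver, the median CPM of the deposited counts was 4236 to 4368 in young liver, against 0.523, 0.615 and 0.799 in the young brain libraries. Among the old brain libraries, that of old animal 2 had a median of 235, and those of old animals 1 and 3 had 0.627 and 4.24. For the 50 most abundant transcripts at least 2-fold lower in liver, the medians were 52.1 to 60.9 in young liver and 1354 to 1417 in young brain. Summed instead of taken at the median, the liver set held 12.4% to 15.1% of its young liver share of counts in the young brain libraries, and the brain set held 5.5% to 6.25% of its young brain share in the young liver libraries. The sums and the medians therefore order the organs differently. The liver set includes the third and the eighth transcript of liver, which took 2.91% and 0.904% of brain counts. They were at least 2-fold higher in liver under TMM (log2 of 1.11 and 1.27) but not under library totals (-0.05 and 0.11). The part of RNA carried between organs in any of these values was not tested.

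Livers of different animals differed more than brains did. On the 10812 transcripts with at least 10 counts in each of the 6 libraries, the common biological coefficient of variation was 16.6% in liver and 6.7% in brain, and the median coefficient of variation of a transcript was 11.99% and 6.2%. A coefficient over 50% was found for 194 transcripts in liver and 26 in brain. Animal 1 carried much of this in both organs. Without it the common coefficient was 8.61% in liver and 3.68% in brain. With 3 libraries an organ this difference is a description, with no test.

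Most organ differences of young animals were also found in old ones, whose libraries had no part in the young result. Old liver against old brain gave 11402 calls (78.2%), 5138 transcripts higher (35.2%) and 6264 lower (42.9%) of 14587 tested by the same fit. Of 8032 transcripts at least 2-fold different in young animals and tested at both ages, 7745 (96.4%) were called in the same direction in old animals and 5 in the opposite one. Of 7840 at least 2-fold different in old animals, 7674 (97.9%) were called in the same direction in young ones. Without old animal 2, 7587 of 8035 (94.4%) were called in the same direction.

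The sizes were alike at both ages except for the largest differences on the side of liver, where the gap was smaller without old animal 2. Median log2 differences of the transcripts at least 2-fold higher in young liver were 2.28 in old and 2.36 in young animals, and of those at least 2-fold lower -3.65 and -3.78. For 81 transcripts with a young log2 difference of 10 or more and over 3 counts in young brain, the median was 9.77 in old and 12.41 in young animals, and it was 11.65 in old animals without old animal 2. On the other side, 36 transcripts with a young log2 difference of -10 or less and over 3 counts in young liver had medians of -10.77 in old and -10.86 in young animals. Both sets were chosen for extreme young values, so their values at the other age are a description. ENSRNOT00000003921 had 4863718, 4770170 and 2883675 counts in old liver, and 137, 111795 and 609 in old brain, with the high value in old animal 2.

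**Figure D5:**
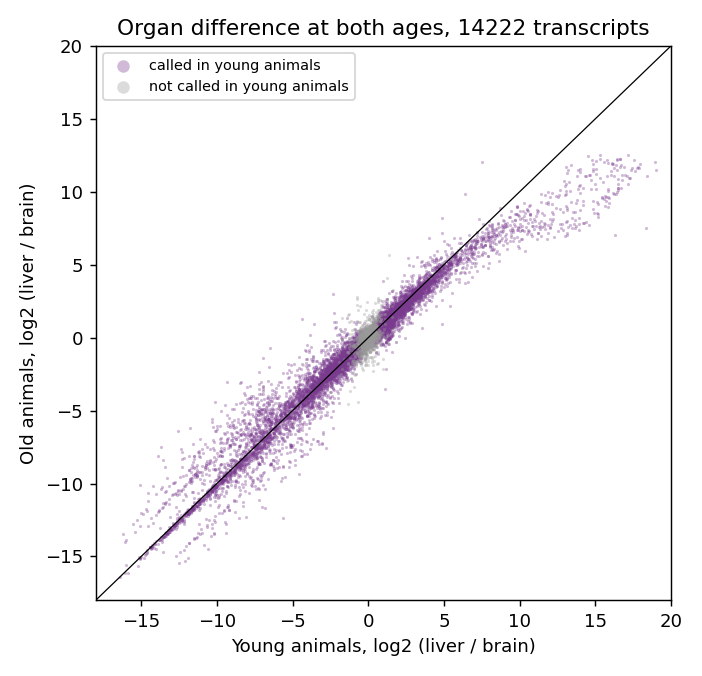
Log2 difference between liver and brain in old animals (y axis) against young animals (x axis) for the 14222 transcripts tested at both ages, with the line of equal values. Most points lie along the line, and many with a young value of 10 or more lie below it: for the 81 of these with over 3 counts in young brain, medians were 9.77 in old (11.65 without old animal 2) and 12.41 in young animals.

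A test of the difference itself, the interaction of organ and age over the 12 RNA-seq libraries with the animal as a block, called 2 of 14762 transcripts (0.0135%) by edgeR, both with a larger ratio of liver to brain in old animals. There were 2438 at an unadjusted p under 0.05, and 151 transcripts were called without the block. The count was 0 when old animal 1, young animal 2 or young animal 3 was left out, and 61 without old animal 2. None of the 4 transcripts described by identifier above was called, with adjusted p of 0.195 to 1. A difference between ages that misses the threshold is not shown to be absent.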

How the data were processed

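RNA-seq counts per transcript were deposited as whole numbers without normalisation, in a separate file for each library. A further column, undefined in the files and here called length-like, served only one alternative (an other measure). Per the submitters' processing notes Bowtie 1.0.0.0, TopHat2 2.0.10, DESeq and build rn4 were used. Not given in the sources used here: their roles, the annotation, the counting rule. Of 22938 transcripts, 5630 had 0 counts in all 6 young RNA-seq libraries, and 41 with at least 50 counts shared identical counts with another, so near-identical copies are uncertain. A stranded kit was used, per the labels' protocols.

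Liver and brain were compared by the robust, two-sided quasi-likelihood F test of edgeR 4.0.16 (R 4.3.3; TMM factors; filterByExpr, with 10 as its minimum count and 15 as its minimum total; Benjamini-Hochberg adjustment over all transcripts tested; adjusted p under 0.05). The animal was a block, since titles give the liver and the brain library of an animal the same code and the series describes matched material. Deviations from organ means correlated at 0.153, 0.0671 and 0.103 within animals and at -0.127 to 0.058 between them. Each deviation was taken from the mean of the organ's own libraries, which ties the values between animals to those within. They therefore give no separate baseline and do not test the pairing. SE values were derived from the F statistic. Replicates differed by more than sampling noise, with chi-square over degrees of freedom of 3.17 or more. Alternatives used DESeq2 1.42.0, limma 3.58.1, other scalings, filters, depths and left-out animals.

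Transcripts were named by this rule: per direction, the called, at least 2-fold transcript of highest level in the higher organ, and the most abundant transcript with 0 counts in the other organ, passing over those with identical copies. The comparison, lists and tests were chosen with earlier results of these data known. Cell type markers listed for the case of paired gene names were not used.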

Additional observations from a re-analysis of the deposited data

Results flagged for a closer look

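The difference between the organs changed with age for 2 transcripts by the edgeR interaction test of organ and age. They were named after their values were seen, and neither was called when old animal 1, young animal 2 or young animal 3 was left out, where the count was 0, while it was 61 without old animal 2. ENSRNOT00000010238 had 35.9, 21.0 and 26.9 TMM-scaled CPM in old liver and 10.8, 11.5 and 10.8 in old brain, and 0.912, 0.464 and 0.237 in young liver and 9.73, 11.7 and 12.5 in young brain. Its log2 difference between liver and brain was 1.31 in old and -4.39 in young animals, a change of 5.68 (SE 0.44, adjusted p = 0.0297 by edgeR). The young liver values of this transcript were near the floor, so the size of its change rests on few counts. ENSRNOT00000026303 had 27.9, 32.2 and 27.7 in old liver and 11.4, 15.5 and 14.0 in old brain, and 2.36, 5.80 and 7.59 in young liver and 5.25, 9.34 and 15.4 in young brain. Its log2 difference was 1.11 in old and -0.97 in young animals, a change of 2.04 (SE 0.18, adjusted p = 0.0368 by edgeR). Young liver was below young brain in 3 of 3 animals for both, and old liver above old brain in 3 of 3.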

How the results depend on the processing

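The 4 transcripts described by the rule for names kept the sign of their difference and their call in each alternative that tested them; ENSRNOT00000003921 and ENSRNOT00000019239 were not tested where the most abundant transcripts were left out. Library totals alone gave 2389 higher and 10309 lower calls, 1813 and 8327 of them at least 2-fold; the other 13 settings stayed within 1.5 times the counts given, and the fit without the replicate block gave 5328 higher and 6430 lower. The old comparison kept its counts within 1.5 times under each alternative run, without the block as well. The interaction of organ and age gave 151 calls without the replicate block and 0 to 61 with single animals left out, being 0 when old animal 1, young animal 2 or young animal 3 was left out, and 61 without old animal 2. Without the block, calls were made by the same tool on more residual degrees of freedom. Transcripts with 0 counts in the other organ numbered 177 for liver and 1423 for brain with at least 1 count as the minimum, and 246 and 1373 with up to 3 counts allowed in the other organ. With counts per length-like value, the difference of liver minus brain was 4.62 points for the top transcript, 12.2 for the top 10, 26.4 for the top 100 and 23.5 for the top 1000, -711 transcripts for 50% of counts, -3031 for the effective number and 628 for the ratio of the 95th to the 5th percentile. At one depth the last reversed to -15.9. The difference in detected transcripts was -1872 at 1 count, -2149 at 50 counts, -2218 at one depth and -1384 at one effective size. The difference in biological coefficient of variation was 4.93 to 11.5 points with single animals left out, lowest without animal 1. The cause was not tested for any of these. Thinning to one effective size, leaving animals out of the interaction and of the coefficient of variation, and the unblocked interaction were chosen after seeing the data.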
